A study of Mus musculus with 48 samples.

Results

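Kidney cortex was compared 3 days and 1 day after severe ischemia, to ask which genes changed early and passed, which lasted and which started late. The comparison took the left kidneys clamped for 40 minutes, 6 labelled day 3 and 6 labelled day 1, which are 12 of the 48 RNA-seq libraries of the series and were taken by their titles. All mice were male C57BL/6, aged 6 to 8 weeks, with no genetic change or drug in the labels. The left renal pedicle was clamped for 40 minutes (severe) or 20 minutes (mild) and reperfused for 1 or 3 days, 6 mice a group. The right kidney of each mouse served as its own control. By the study's description the right kidneys were taken out before the left pedicle was clamped. A right kidney thus carries the day of its mouse in its label but may not have seen the ischemia or the days after it. By the same account each left kidney was the only kidney of its mouse over those days. The part of ischemia and the part of losing the other kidney cannot be told apart in the left and right comparisons or between the days. The day 1 and day 3 mice were different animals.

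As background, clamping the renal artery and vein starves the tubules of oxygen, and the proximal tubule, which recovers most of the filtered solutes and burns fatty acids to do so, is the segment most easily hurt. Surviving tubule cells lose their transporters, switch on injury genes such as Havcr1 (kidney injury molecule 1), enter the cell cycle and divide to replace the cells that died. Neutrophils enter first and monocyte-derived macrophages follow, while endothelial cells and fibroblasts respond around the tubules.

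Levels are FPKM, fragments per kilobase of transcript scaled to the mapped fragments of the library, summed over the transcripts of a gene. Differences are log2 ratios of day 3 to day 1 on the log2(FPKM + 0.01) scale with their standard error (SE), tested with limma over all genes and adjusted by the Benjamini-Hochberg method. A gene was called higher or lower, and is said to have risen or fallen, at an adjusted p under 0.05 with a change of at least 2-fold.

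1 library went against its label. The library labelled day 1 replicate 6 correlated more closely with the day 3 kidneys (mean r = 0.952 over 12073 genes) than with the other day 1 kidneys (mean r = 0.915). The other 5 day 1 kidneys had a mean r of 0.948 to 0.952 with their own day and of 0.906 to 0.917 with day 3. On the first principal component, 38% of the variance, that library lay at -29.7, among the day 3 kidneys (-33.4 to -24.6) and away from the other day 1 kidneys (30.3 to 47.6). Of the 1149 genes called without it, 1013 (88.2%) had a value in it nearer to the day 3 mean. It kept its label in every test. Of the 124 genes named, none lost its call when that library was left out, 8 gained one and 1 near 0 changed sign, and the counts and the leading genes are given with it and without it.

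**Figure D1:**
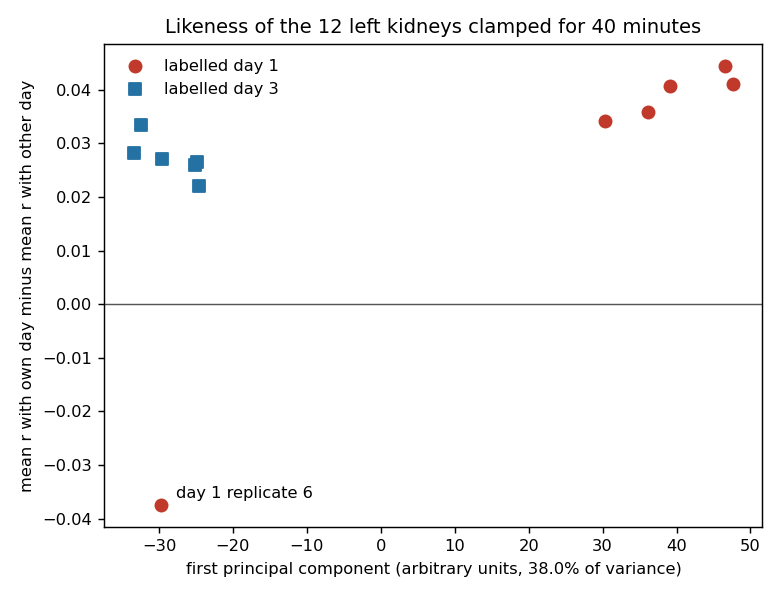
Each point is 1 left kidney clamped for 40 minutes. The horizontal axis is the first principal component of log2(FPKM + 0.01) in arbitrary units, and the vertical axis is its mean correlation with kidneys of its own day minus that with the other day. The library labelled day 1 replicate 6 is the only point below 0 and lies at -29.7 among the day 3 kidneys.

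The 48 libraries summed to 381308 to 421059 FPKM. Read counts were not used here, so the depth behind each value is unknown and precision is given by the spread between kidneys. Of 14261 genes tested, 472 were higher (3.31%) and 232 lower (1.63%) on day 3. Without day 1 replicate 6 the counts were 787 (5.52%) and 362 (2.54%) of 14254, and they included 468 of the 472 and 231 of the 232. The count of lower genes was 152 without day 1 replicate 3 and 150 without day 1 replicate 5. At an adjusted p under 0.05 with no fold limit, 1381 genes were higher (9.68%) and 1951 lower (13.7%). The median of all genes was -0.05. In the right kidneys no gene was called between the same days by limma, in either direction, with 778 of 14147 genes at an unadjusted p under 0.05 (5.50%), and a fit over all 48 kidneys called 0 higher and 1 lower. Cells were not counted, so fewer cells of a type and less RNA per cell cannot be told apart anywhere below.

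**Figure D2:**
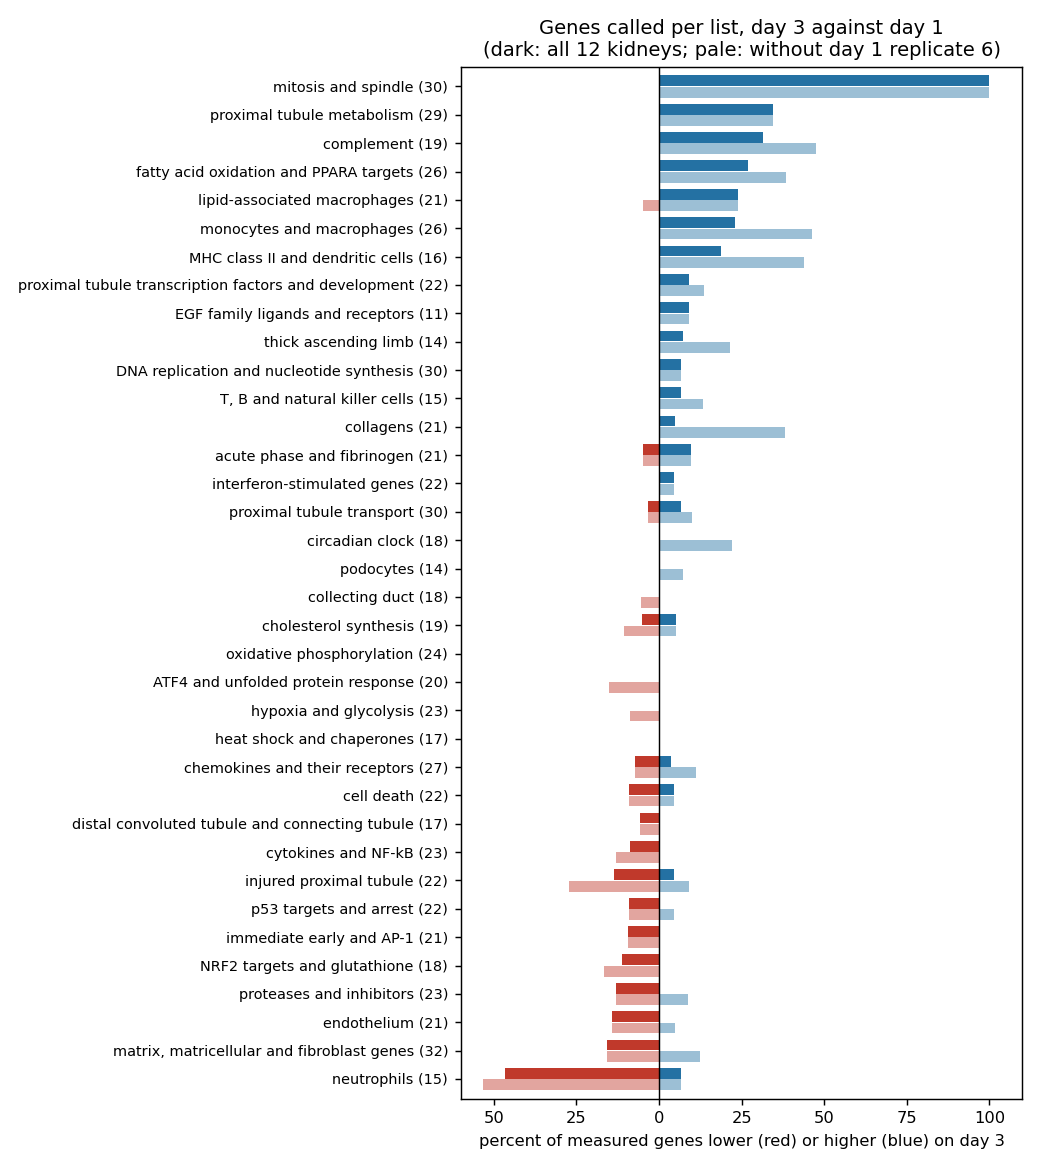
Bars give the percent of the measured genes of each list (number in parentheses) that were called lower (red, to the left) or higher (blue, to the right) on day 3 than on day 1, where dark bars use all 12 kidneys and pale bars leave out day 1 replicate 6. All 30 mitosis genes were higher with either set of kidneys, and 7 of 15 neutrophil genes were lower.

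The most uniform change was in genes of cell division. All 30 measured genes of mitosis and the spindle were higher on day 3, with a median change of 2.35 on the log2 scale, and all 30 were also called without day 1 replicate 6 (median 2.77) and when any other of the 12 kidneys was left out. Of the 30 genes of DNA replication and nucleotide synthesis, which act earlier in the cycle, 2 were higher and none lower, with a median of -0.14. The background for both counts is 3.31% of all genes higher, or 5.52% without day 1 replicate 6. In 7 of the 30 mitosis genes the 6 day 3 kidneys lay above all 6 day 1 kidneys, against 1.44% of all genes. Without day 1 replicate 6 this held for 30, against 9.27%. On day 1, 26 mitosis genes and 22 replication genes were already above the right kidneys, and on day 3, 30 and 21 were, against 15.7% and 15.3% of all genes on the 2 days. Leaving out day 1 replicate 6 gave 24 and 22 on day 1, against 15.8%.

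The promoters of the 2 lists are shown because their members parted in time. The cell cycle homology region, here the letters TTTGAA on either strand (TTCAAA on the other), and the CCAAT box (ATTGG on the other strand) are elements known from promoters of genes used late in the cycle. E2F factors act through sites such as GCGGGAA (read on the other strand as TTCCCGC) in genes of DNA synthesis. Below are the 120 bases before the annotated start of 4 mitosis genes and of 1 replication gene, from RefSeq on GRCm38.p6, read 5′ to 3′ in the direction of transcription, with those letters in capitals. Cdc20 activates the anaphase-promoting complex, Cdk1 is the mitotic kinase, Top2a untangles chromosomes, Kif11 is a spindle motor, and Rrm1 is the large subunit of ribonucleotide reductase.
Cdc20, chr4:118437344-118437463, minus strand: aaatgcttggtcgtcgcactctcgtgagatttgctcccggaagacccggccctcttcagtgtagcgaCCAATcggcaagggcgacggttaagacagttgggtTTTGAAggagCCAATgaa
Cdk1, chr10:69352913-69353032, minus strand: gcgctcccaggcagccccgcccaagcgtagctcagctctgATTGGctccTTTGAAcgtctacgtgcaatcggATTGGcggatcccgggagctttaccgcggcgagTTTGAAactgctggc
Top2a, chr11:99024190-99024309, minus strand: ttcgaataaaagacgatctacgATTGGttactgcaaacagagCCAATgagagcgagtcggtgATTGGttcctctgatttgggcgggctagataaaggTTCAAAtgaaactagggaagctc
Kif11, chr19:37376262-37376381, plus strand: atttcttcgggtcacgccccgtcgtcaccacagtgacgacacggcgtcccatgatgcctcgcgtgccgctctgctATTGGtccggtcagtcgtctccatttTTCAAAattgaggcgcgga
Rrm1, chr7:102441575-102441694, plus strand: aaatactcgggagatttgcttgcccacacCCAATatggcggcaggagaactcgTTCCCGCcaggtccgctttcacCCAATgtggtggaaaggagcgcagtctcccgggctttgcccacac

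In the promoters given by RefSeq, from 250 bases before to 50 after each start, 24 of 30 genes matched in either list. TTTGAA was in 18 of 25 mitosis promoters (72%), in 2 of 29 replication promoters (6.9%) and in 5878 of all 32851 promoters (17.9%). CCAAT was in 20 (80%), 16 (55.2%) and 12289 (37.4%). TTTGAA and CCAAT were found together in 16 (64%), 1 (3.45%) and 2284 (6.95%). GCGGGAA was in none of the mitosis promoters, in 13 replication promoters (44.8%) and in 1511 of all (4.6%). A match describes these windows only and is no evidence that a factor was bound.

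Birc5 (survivin), which guides chromosomes at the spindle, was at 2.16, 1.99, 2.20, 2.62, 3.03 and 16.2 FPKM in day 1 replicates 1 to 6 and at 18.8, 21.5, 17.3, 29.8, 20.3 and 25.8 FPKM in day 3 replicates 1 to 6. The 2 sets of kidneys did not overlap, and the highest day 1 value was that of replicate 6. The change was 2.74 (SE 0.43, limma adjusted p = 0.00813), and 3.20 (SE 0.16, adjusted p = 7.41e-07) without replicate 6. By the exact permutation test of 6 against 6 kidneys the two-sided p was 0.00216, the smallest this design allows. Every gene whose days do not overlap has this p. Birc5 was among the genes picked for that lack of overlap, so this p adds no support of its own. The right kidneys of both days were at 0.34 to 1.81 FPKM.

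Cdc20 was at 1.68 to 2.42 FPKM in day 1 replicates 1 to 5, at 12.2 in replicate 6 and at 12.6 to 20.9 on day 3, a change of 2.43 (SE 0.40, limma adjusted p = 0.00813), or 2.85 (SE 0.15) without replicate 6. Ccnb2 (cyclin B2) was at 0.85 to 1.75, 12.3 and 12.6 to 26.3 FPKM in the same order, a change of 3.22 (SE 0.53, adjusted p = 0.00813), or 3.77 (SE 0.24) without it. Ccnb1 (cyclin B1), which switches Cdk1 on, was at 0.895 to 1.43, 6.73 and 6.74 to 12.3 FPKM. In these genes replicate 6 stood next to the lowest day 3 kidney. In Cdk1 it reached 7.30 FPKM, inside the day 3 range of 5.41 to 8.91, while the other day 1 kidneys were at 0.902 to 2.01, and the change was 1.95 (SE 0.40, adjusted p = 0.00955), or 2.35 (adjusted p = 1.19e-05) without replicate 6. Top2a changed by 2.04 (SE 0.39) and Kif11 by 2.49 (SE 0.47), with limma adjusted p = 0.00881 and 0.00844, or by 2.42 and 2.94 without replicate 6. Cdkn3, a phosphatase that acts on cyclin-dependent kinases, changed by 2.86 (SE 0.50, adjusted p = 0.00813).

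The 2 replication genes that rose supply deoxynucleotides. Rrm2, the small subunit of ribonucleotide reductase, was at 9.75, 9.58, 12.5, 11.5, 12.4 and 30.1 FPKM on day 1 and at 34.5, 34.8, 29.9, 41.3, 32.9 and 43.1 FPKM on day 3. Its change was 1.45 (SE 0.24, limma adjusted p = 0.00813), and day 1 replicate 6 overlapped the day 3 kidneys by 1 library. Tk1 (thymidine kinase 1) changed by 1.33 (SE 0.25, adjusted p = 0.00871). Mcm2, a subunit of the replicative helicase, was at 8.28 to 19.9 FPKM on day 1 and 5.98 to 9.98 on day 3, with a change of -0.73 (SE 0.22, adjusted p = 0.0339) that is under 2-fold. Rrm1 showed 0.17 (SE 0.13, adjusted p = 0.357). Both stood above the right kidneys on both days, Mcm2 by 1.95 on day 1 and 1.27 on day 3.

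**Figure D3:**
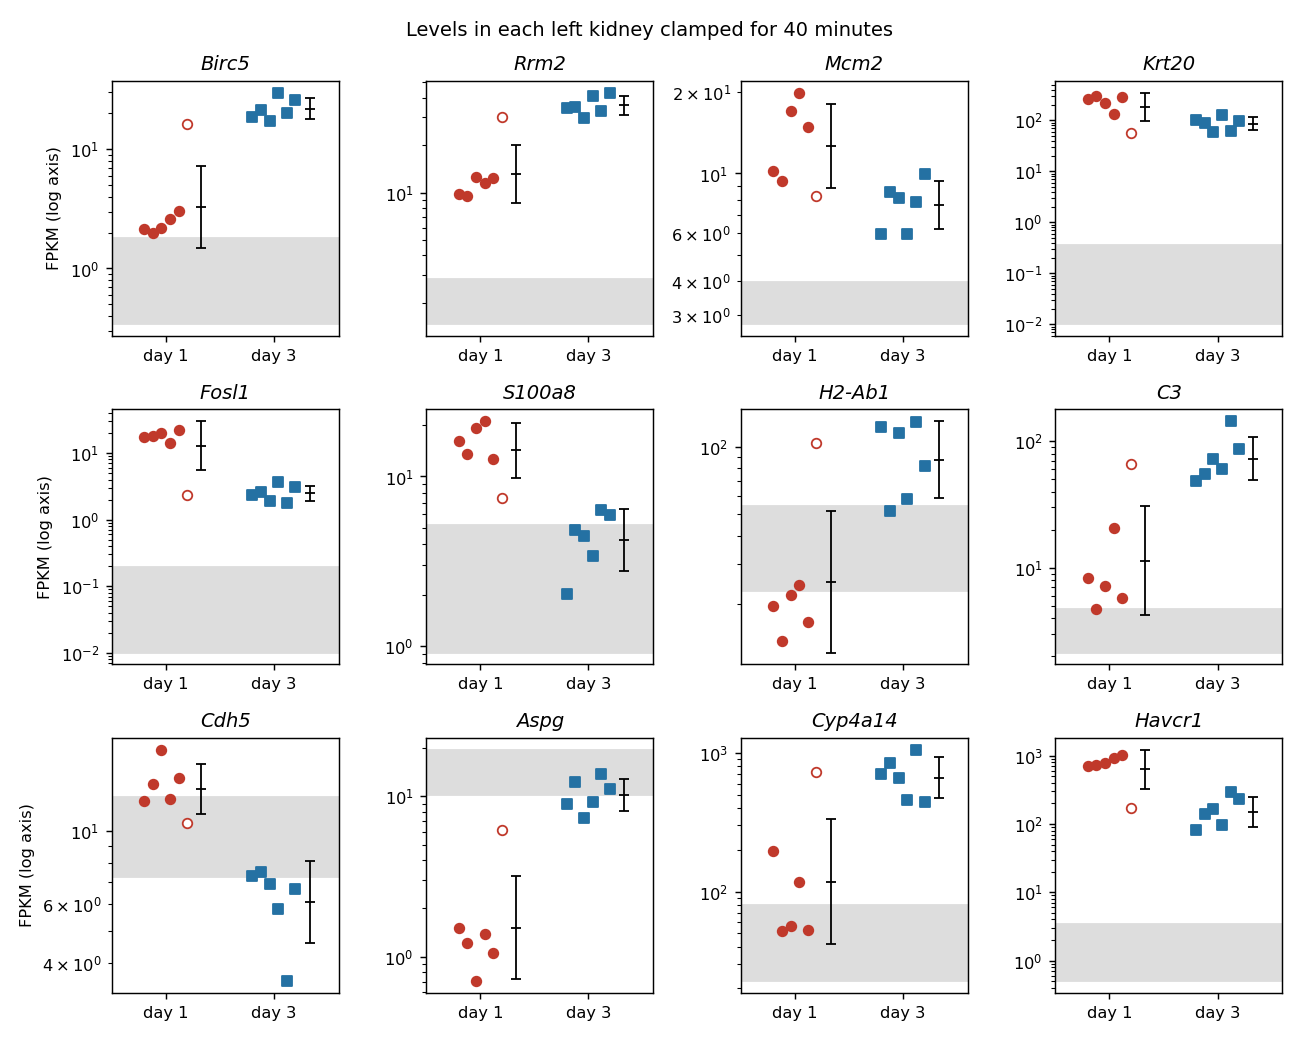
FPKM on a log axis of 12 genes in each left kidney clamped for 40 minutes, with day 1 as circles and day 3 as squares. The open circle is day 1 replicate 6, the black mark and bar are the mean and SD on the log2 scale, and the grey band is the range of the 12 right kidneys. In Birc5 the open circle (16.2 FPKM) sits just under the day 3 kidneys, and in Fosl1 (2.34 FPKM) it sits among them.

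A few genes of injured tubule fell towards the right kidneys, and most stayed above them. Of 22 measured genes of injured proximal tubule, 18 were above the right kidneys on day 1 and 18 on day 3, against 15.7% and 15.3% of all genes. Leaving out day 1 replicate 6 gave 6 lower and 2 higher between the days, against 2.54% and 5.52% of all genes. With all kidneys 3 were lower (Havcr1, Lcn2 and Sprr2f) and 1 was higher, against 1.63% lower and 3.31% higher among all genes. The higher one was Cp (ceruloplasmin), which carries copper (1.12, SE 0.32, limma adjusted p = 0.0262), and it was not called when any of 5 kidneys was left out (adjusted p 0.0469 to 0.0616). In a fit whose spread was pooled over all 48 kidneys no gene of the list was lower and 2 were higher.

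Havcr1 was at 714, 731, 774, 931, 1026 and 171 FPKM in day 1 replicates 1 to 6 and at 80.4, 138, 164, 95.1, 290 and 232 FPKM on day 3. Apart from day 1 replicate 6 every day 1 kidney lay above every day 3 kidney, and all 12 lay above the right kidneys (0.497 to 3.48 FPKM). The change was -2.08 (SE 0.43, limma adjusted p = 0.00957), or -2.46 (SE 0.30, adjusted p = 9.12e-05) without replicate 6. Lcn2 (neutrophil gelatinase-associated lipocalin), made by tubule cells and by neutrophils, changed by -1.03 (SE 0.21, adjusted p = 0.00955) from a day 1 range of 418 to 1040 to 281 to 440 FPKM. It no longer reached 2-fold when any of 6 kidneys was left out (-0.99 to -0.94). Sprr2f, a cornified envelope protein, was listed at 0 in all 12 right kidneys, at 9.35 to 54.3 FPKM on day 1 and at 8.96 to 21 FPKM on day 3, a change of -1.35 (SE 0.36, adjusted p = 0.0195). With the spread pooled over all 48 kidneys the adjusted p was 0.127 for Havcr1, 0.476 for Lcn2 and 0.266 for Sprr2f.

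The keratins, the filaments of epithelial cells, did not move as 1 group. Krt20 was at 261, 304, 216, 131, 290 and 56.9 FPKM on day 1 and at 100, 89.8, 58.3, 127, 61.4 and 96.4 FPKM on day 3, with 0 to 0.363 FPKM in the right kidneys. Its difference, -1.09 (SE 0.38, limma adjusted p = 0.052), did not pass the test, and without day 1 replicate 6, the lowest of all 12 kidneys, it did (-1.43, SE 0.25, adjusted p = 0.000968). Krt8 showed -0.86 (SE 0.20, adjusted p = 0.0128) and -1.05 (adjusted p = 2.53e-05) without replicate 6, while its usual partner Krt18 showed 0.33 (SE 0.12, adjusted p = 0.066). Krt19 showed 0.15 (SE 0.19, adjusted p = 0.601) and Krt7 showed -0.12 (SE 0.16, adjusted p = 0.62). Krt8, Krt18 and Krt19 were above the right kidneys on both days.

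Timp2 and Igfbp7, the pair of urinary cell cycle arrest markers, showed 0.27 (SE 0.20, limma adjusted p = 0.346) and -0.01 (SE 0.09, adjusted p = 0.937). Timp2 was above the right kidneys by 1.08 on day 1 and 1.40 on day 3, and Igfbp7 stood at 451 to 655 FPKM in the clamped kidneys against 607 to 697 in the right kidneys. Acsl4, an enzyme of lipid metabolism linked to ferroptosis, was at 39.7 to 51.8 FPKM on day 1 and 42.9 to 54.5 on day 3, with 11.3 to 15.9 in the right kidneys, a difference of 0.06 (SE 0.09). Mlkl, the executor of necroptosis, showed -0.72 (SE 0.23, adjusted p = 0.0426), under 2-fold, from 3.30 to 8.59 FPKM on day 1 to 2.91 to 5.05 on day 3.

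Few of the immediate early and stress genes fell. Of 21 immediate early and AP-1 genes 2 were lower on day 3 and none higher, against 1.63% and 3.31% of all genes. The 2 were Fosl1 and Myc, and 11 genes of the list were above the right kidneys on day 1 and 12 on day 3, against 15.7% and 15.3% of all genes. Of 22 p53 targets 2 were lower, of 18 NRF2 targets 2 (11 at an adjusted p under 0.05 with no fold limit, against 13.7% of all genes), and of the 17 heat shock genes and the 23 hypoxia genes none was called in either direction. Without day 1 replicate 6 the counts of lower genes were 2, 2, 3, 0 and 2 in that order, and 1 p53 target was higher. Among all genes 2.54% were then lower and 5.52% higher.

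Fosl1 (Fra-1), an AP-1 transcription factor, was at 17.2, 17.9, 19.9, 14.3, 22.4 and 2.34 FPKM on day 1 and at 2.31, 2.57, 1.87, 3.64, 1.78 and 3.04 FPKM on day 3. Day 1 replicate 6 lay within the day 3 values and the other 5 lay above all of them. The change was -2.39 (SE 0.47, limma adjusted p = 0.00884), or -2.88 (SE 0.19, adjusted p = 2.7e-06) without replicate 6, and with the spread pooled over all 48 kidneys the adjusted p was 0.118. Myc, which drives growth and ribosome production, changed by -1.04 (SE 0.22, adjusted p = 0.00966) and no longer reached 2-fold when any of 5 kidneys was left out (-0.98 to -0.92). Jund showed -0.44 (SE 0.09, adjusted p = 0.00996), under 2-fold.

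Srm, the spermidine synthase, was at 35.8, 31, 32.2, 34.8, 35.4 and 12.1 FPKM on day 1 and at 6.85, 8.52, 11.4, 8.16, 11.4 and 10.9 FPKM on day 3, without overlap. Its day 3 kidneys were within the range of the right kidneys, which began at 6.74 and ended at 11 FPKM, except 2 at 11.4. The change was -1.60 (SE 0.25, limma adjusted p = 0.00813), or -1.85 (SE 0.13) without replicate 6. Ptgs2 (cyclooxygenase 2) changed by -1.58 (SE 0.25, adjusted p = 0.00813) from 1.02 to 2.40 FPKM on day 1 to 0.363 to 0.71 on day 3. Mt3, a metallothionein, was at 6.86 to 9.98 FPKM in day 1 replicates 1 to 5, 0.677 in replicate 6 and 0.378 to 1.18 on day 3, a change of -2.71 (SE 0.58, adjusted p = 0.01), or -3.30 (SE 0.28) without it. Vgf, a secreted neuropeptide precursor listed at 0 in all right kidneys, was at 4.44 to 11.4 FPKM in day 1 replicates 1 to 5, at 0.471 in replicate 6 and at 0 to 0.721 on day 3, and it fell at an adjusted p of 0.0129.

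Gdf15, a stress cytokine and p53 target, was at 57.7, 72.6, 62.2, 62.4, 100 and 39 FPKM on day 1 and at 24 to 36.5 on day 3. It changed by -1.06 (SE 0.19, limma adjusted p = 0.00813), and by -1.0 and -0.93 when day 3 replicate 6 or day 1 replicate 5 was left out, just short of 2-fold. Aen, a p53-induced nuclease, changed by -1.54 (SE 0.38, adjusted p = 0.0156), and Zmat3, another p53 target, showed -0.52 (SE 0.11, adjusted p = 0.00982). Among NRF2 targets Srxn1 (sulfiredoxin) was at 214 to 310 FPKM in day 1 replicates 1 to 5, 72.8 in replicate 6 and 45.9 to 87.9 on day 3, a change of -1.57 (SE 0.32, adjusted p = 0.00918). Gsta1, a glutathione transferase, changed by -1.28 (SE 0.33, adjusted p = 0.0175). Gsr (glutathione reductase) showed -0.50 (SE 0.10, adjusted p = 0.0094) and Ftl1 (ferritin light chain) -0.58 (SE 0.10, adjusted p = 0.00813), both under 2-fold.

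Several neutrophil genes fell and several macrophage genes rose. Of 15 measured neutrophil genes 7 were lower and 1 higher, against 1.63% and 3.31% of all genes, with a median of -1.32. The count of lower genes was 4 with a pseudocount of 1 FPKM and 2 with the spread pooled over all 48 kidneys. With day 1 replicate 6 left out, 8 of these genes were lower and 1 higher, against 2.54% and 5.52%. Their summed level was 547 to 1113 FPKM on day 1, 429 to 616 on day 3 and 27.4 to 93.7 in the right kidneys, and Lcn2, which tubules also make, is in this sum. Of 26 monocyte and macrophage genes 6 were higher and none lower, against 3.31% and 1.63%, with a median of 0.80. With replicate 6 left out, 12 of these genes were higher and none lower, against 5.52% and 2.54%. Their summed level was 158 to 434 FPKM in day 1 replicates 1 to 5, 793 in replicate 6, 386 to 855 on day 3 and 49.7 to 121 in the right kidneys.

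S100a8, a subunit of calprotectin and abundant in neutrophils, was at 16.3, 13.6, 19.3, 21.2, 12.7 and 7.49 FPKM on day 1 and at 2.02, 4.85, 4.46, 3.39, 6.36 and 5.96 FPKM on day 3. The days did not overlap, and 5 of the 6 day 1 kidneys lay well above replicate 6. The change was -1.76 (SE 0.30, limma adjusted p = 0.00813), or -1.95 (SE 0.27) without replicate 6. Its partner S100a9 changed by -1.66 (SE 0.29, adjusted p = 0.00813). Retnlg and Cxcr2, the latter the receptor that draws neutrophils to chemokines, changed by -2.23 (SE 0.42, adjusted p = 0.00844) and -1.78 (SE 0.37, adjusted p = 0.00932). With the spread pooled over all 48 kidneys the adjusted p was 0.131 for S100a8, 0.191 for Retnlg and 0.0826 for Cxcr2. Il1b (interleukin 1 beta) changed by -1.14 (SE 0.27, adjusted p = 0.0144, and 0.165 with the pooled spread). By limma it was called below the right kidneys on day 1 (-1.25, adjusted p = 0.0488). Without day 1 replicate 6 it was not, and on day 3 no gene of the cytokine list was called lower. The 1 gene of the neutrophil list that rose was G0s2, an inhibitor of fat breakdown that fat, liver and kidney also express, from 15.8 to 33.9 FPKM in day 1 replicates 1 to 5 and 103 in replicate 6 to 63.7 to 202 on day 3 (2.01, SE 0.40, adjusted p = 0.00913).

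Ms4a4a, a surface protein of macrophages, was at 3.00, 3.02, 4.75, 5.51, 4.68 and 15 FPKM on day 1 and at 17.6, 29.2, 15.5, 26.4, 16 and 22.2 FPKM on day 3, against 0 to 0.199 in the right kidneys. The days did not overlap, with replicate 6 just under the lowest day 3 kidney. The change was 2.02 (SE 0.34, limma adjusted p = 0.00813, and 0.188 with the pooled spread), or 2.33 (SE 0.22) without replicate 6. Fcgr3, an IgG receptor, changed by 1.43 (SE 0.40, adjusted p = 0.0234) and was not called when day 1 replicate 1, 2 or 3 was left out (adjusted p 0.0515 to 0.0547).

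Of 21 genes of lipid-associated macrophages 5 were higher and none lower, against 3.31% and 1.63% of all genes. Leaving out day 1 replicate 6 gave 5 and 1, against 5.52% and 2.54%. With all kidneys and no fold limit 6 were higher and 3 lower at an adjusted p under 0.05, against 9.68% and 13.7%. The summed level of the list was 6233 to 7929 FPKM on day 1, 5458 to 6823 on day 3 and 2000 to 2280 in the right kidneys. Apoc2, an activator of lipoprotein lipase, was at 0.506 to 2.35 FPKM on day 1, replicate 6 included, and at 16.3, 46.6, 36.2, 26.5, 2.81 and 31.6 FPKM on day 3, a change of 4.13 (SE 0.61, limma adjusted p = 0.00813). In this gene replicate 6 (1.78 FPKM) lay within the other day 1 kidneys. Apoe, which carries cholesterol, changed by 1.84 (SE 0.46, adjusted p = 0.0163) and Gpnmb, a glycoprotein of lipid-loaded macrophages, by 1.31 (SE 0.34, adjusted p = 0.0191, and 0.418 with the pooled spread). Trem2, a lipid receptor, and Apoc1 changed by 2.14 (SE 0.63, adjusted p = 0.0297) and 2.17 (SE 0.65, adjusted p = 0.0306), and each was not called when any of 8 kidneys was left out (adjusted p 0.0506 to 0.0702). With the pooled spread Trem2 was not called either (adjusted p = 0.176). Lgals3 (galectin 3), which injured tubules make too, showed -0.96 (SE 0.24, adjusted p = 0.0167) and fell without day 1 replicate 6 (-1.21, adjusted p = 1.84e-05).

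A few genes of antigen presentation rose from day 1 to day 3. Leaving out day 1 replicate 6 gave 7 higher and none lower of 16 measured genes of MHC class II and dendritic cells. Among all genes 5.52% and 2.54% were then called. With all kidneys 3 were higher and none lower, against 3.31% and 1.63% of all genes. Against the right kidneys 1 was higher and 3 lower on day 1, where 15.7% and 7.39% of all genes were, and 7 were higher and 1 lower on day 3, where 15.3% and 5.98% were. H2-Ab1, a class II beta chain, was at 19.6, 13.7, 21.8, 24.3, 16.7 and 104 FPKM on day 1 and at 122, 51.8, 115, 58.5, 128 and 81.9 FPKM on day 3. Day 1 replicates 1 to 5 lay at or under the low end of the right kidneys (22.8 to 54.3 FPKM), and replicate 6 lay among the day 3 kidneys. The change was 1.80 (SE 0.43, limma adjusted p = 0.0143), or 2.21 (SE 0.26) without replicate 6. H2-DMa, which loads peptides onto class II, changed by 1.32 (SE 0.33, adjusted p = 0.0169). Ctss, which trims the invariant chain, changed by 1.01 (SE 0.30, adjusted p = 0.0294) and was not called when any of 6 kidneys was left out. Ubd (FAT10), a ubiquitin-like protein induced by interferon gamma and tumor necrosis factor, was at 0.165 to 0.855 FPKM in day 1 replicates 1 to 5, 6.15 in replicate 6 and 6.24 to 15 on day 3 (3.58, SE 0.66, adjusted p = 0.00844).

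Of 15 genes of T, B and natural killer cells only Nkg7 was called, as higher, against 3.31% of all genes higher. Nkg7 is a granule protein of cytotoxic cells. It was listed at 0, 0.0804, 0, 0, 0.0867 and 0.98 FPKM on day 1 and at 0.232, 0.14, 1.38, 0.376, 3.44 and 2.05 FPKM on day 3 (limma adjusted p = 0.0323). Without any 1 of 7 kidneys it was not called (adjusted p 0.0509 to 0.0744). With day 1 replicate 6 left out the list held 2 higher genes, against 5.52% of all genes. The summed level of the list was 0.972 to 10.2 FPKM on day 1 and 2.68 to 18.7 on day 3.

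Complement genes were higher on day 3 in 6 of 19 and lower in none, against 3.31% and 1.63% of all genes, with a median of 0.76. Leaving out day 1 replicate 6 gave 9 and none, against 5.52% and 2.54%. C3, the central component, was at 8.26, 4.76, 7.16, 20.6, 5.72 and 65.6 FPKM on day 1 and at 48.7, 54.8, 72.8, 60.8, 144 and 86.8 FPKM on day 3, with 2.12 to 4.69 in the right kidneys. It changed by 2.67 (SE 0.56, limma adjusted p = 0.00966), or 3.18 (SE 0.37, adjusted p = 6.83e-05) without replicate 6, which lay among the day 3 kidneys. C2 showed no called difference from the right kidneys on day 1 (0.17, adjusted p = 0.615) and rose between the days by 1.37 (SE 0.28, adjusted p = 0.00918). Cfi (factor I), which cuts active C3 and C4 fragments, changed by 1.86 (SE 0.46, adjusted p = 0.0153). Macrophages and tubule cells both make complement proteins, and the macrophage genes above rose over the same days. The part of either was not tested.

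A few endothelial genes fell. Of 21 measured, 3 were lower by at least 2-fold and none higher, against 1.63% and 3.31% of all genes, and 11 were lower at an adjusted p under 0.05 with no fold limit, against 13.7%. In 7 of the 21 the days did not overlap, against 2.79% of all genes lower in that way. Their summed level was 315 to 390 FPKM on day 1, 172 to 293 on day 3 and 198 to 307 in the right kidneys, and day 1 replicate 6 was the lowest of its day. Leaving out that library gave 3 lower and 1 higher, against 2.54% and 5.52% of all genes.

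Cdh5 (VE-cadherin), the junction protein of endothelium, was at 12.4, 13.9, 17.6, 12.5, 14.5 and 10.6 FPKM on day 1 and at 7.31, 7.51, 6.93, 5.82, 3.51 and 6.67 FPKM on day 3. The days did not overlap, and day 3 replicate 5 was lowest. The change was -1.13 (SE 0.18, limma adjusted p = 0.00813), and -0.97 without day 3 replicate 5. Pecam1 (CD31) changed by -1.22 (SE 0.26, adjusted p = 0.00962), and by -0.99 without the same kidney. Kdr (VEGF receptor 2) changed by -1.29 (SE 0.26, adjusted p = 0.00918), and Tek (TIE2) showed -0.95 (SE 0.16, adjusted p = 0.00813). Esm1, secreted by endothelial cells, was at 4.98 to 12.6 FPKM on day 1, 2.06 to 3.78 on day 3 and 8.36 to 18.1 in the right kidneys, a change of -1.50 (SE 0.24, adjusted p = 0.00813).

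Among 14 podocyte genes none was called, and 5 were lower and 2 higher at an adjusted p under 0.05 with no fold limit, against 13.7% and 9.68% of all genes. Podxl (podocalyxin), which endothelium also makes, showed -0.77 (SE 0.17, limma adjusted p = 0.0113). With day 1 replicate 6 left out, 1 gene of the list was higher and none lower, against 5.52% and 2.54% of all genes.

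Matrix and fibroblast genes stayed high from day 1 to day 3. Of 32 measured, 28 were above the right kidneys on day 1 and 28 on day 3, against 15.7% and 15.3% of all genes. Between the days 5 were lower and none higher, against 1.63% and 3.31%. Leaving out day 1 replicate 6 gave 5 and 4, against 2.54% and 5.52%. Ccn1 (CYR61), a matricellular protein, was at 105, 72.3, 94, 80.1, 100 and 55.1 FPKM on day 1 and at 25.4, 34, 52.9, 36.3, 47.5 and 39.6 FPKM on day 3, without overlap. It changed by -1.11 (SE 0.19, limma adjusted p = 0.00813), and by -0.99 without day 3 replicate 1. Pdgfb, a growth factor for pericytes, changed by -1.14 (SE 0.20, adjusted p = 0.00813) and Tnc (tenascin C) by -1.25 (SE 0.28, adjusted p = 0.0113, and 0.056 with the pooled spread). The other 2 lower genes are contractile genes of smooth muscle and myofibroblasts. Acta2 was at 181 to 261 FPKM in day 1 replicates 1 to 5, 77.2 in replicate 6 and 24.7 to 166 on day 3 (-1.38, SE 0.40, adjusted p = 0.0281), and was not called when any of 6 kidneys was left out (adjusted p 0.0522 to 0.0643). Tagln changed by -1.19 (SE 0.32, adjusted p = 0.0202), and by -0.93 without day 3 replicate 5. Thbs1 (thrombospondin 1) showed -0.79 (SE 0.17, adjusted p = 0.00982).

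Of 21 collagens, 14 were above the right kidneys on day 1 and 15 on day 3, against 15.7% and 15.3% of all genes. With day 1 replicate 6 left out, 8 rose between the days, against 5.52% of all genes. With all kidneys 1 collagen rose, against 3.31%. It was Col1a2, a chain of type I collagen, at 27.5 to 53.8 FPKM in day 1 replicates 1 to 5, 151 in replicate 6 and 55.9 to 141 on day 3 (1.09, SE 0.36, limma adjusted p = 0.0453). It was not called when any of 10 kidneys was left out (adjusted p 0.0648 to 0.0965). Col4a3, of the mature glomerular and tubular basement membrane, was below the right kidneys on day 1 (-1.20) and showed 0.65 (SE 0.15, adjusted p = 0.0133) between the days. Of 23 proteases and inhibitors 3 were lower and none higher, against 1.63% and 3.31% of all genes. Leaving out replicate 6 gave 3 and 2, against 2.54% and 5.52%. Plaur (urokinase receptor) changed by -1.34 (SE 0.27, adjusted p = 0.00918). Mmp9 (gelatinase B), which neutrophils also carry, changed by -1.32 (SE 0.36, adjusted p = 0.0209, and 0.189 with the pooled spread). Mmp10 (stromelysin 2), listed at 0 in all right kidneys, was at 1.19 to 2.96 FPKM in day 1 replicates 1 to 5, 0.133 in replicate 6 and 0 to 0.342 on day 3 (adjusted p = 0.0197). Adamts1 showed -0.79 (SE 0.16, adjusted p = 0.00884).

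Some metabolic genes of the proximal tubule rose, and so did a few of its transporters. Of 29 measured genes of proximal tubule metabolism 10 were higher and none lower with a median of 0.64, against 3.31% of all genes higher. The counts were the same without day 1 replicate 6, against 5.52% higher. Of 30 transporter genes 2 were higher and 1 lower, against 3.31% and 1.63%. Leaving out replicate 6 gave 3 and 1, against 5.52% and 2.54%. With all kidneys 12 were higher at an adjusted p under 0.05 with no fold limit, against 9.68%. On day 1, 21 of the metabolic and 15 of the transporter genes were below the right kidneys, and on day 3, 15 and 12 were, against 7.39% and 5.98% of all genes. Leaving out replicate 6 gave 24 and 16 on day 1, against 8.17%. The summed level of the transporters was 1962 to 2524 FPKM in day 1 replicates 1 to 5, 3762 in replicate 6, 2889 to 4131 on day 3 and 5605 to 6159 in the right kidneys.

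Aspg, an asparaginase, was at 1.51, 1.22, 0.704, 1.38, 1.05 and 6.16 FPKM on day 1 and at 8.99, 12.3, 7.27, 9.14, 13.7 and 11 FPKM on day 3, near the 10.1 to 19.5 FPKM of the right kidneys. The days did not overlap. The change was 2.75 (SE 0.41, limma adjusted p = 0.00813), or 3.15 (SE 0.21) without replicate 6. Pck1, which opens gluconeogenesis, was at 649, 324, 225, 268, 207 and 1688 FPKM on day 1 and at 1588 to 2101 on day 3 (2.09, SE 0.43, adjusted p = 0.00927, and 2.51 without replicate 6), above the right kidneys (473 to 1208) on day 3 by 1.14. G6pc, the glucose 6-phosphatase that ends the pathway, changed by 2.66 (SE 0.60, adjusted p = 0.0119) and Hpd, of tyrosine breakdown, by 2.33 (SE 0.45, adjusted p = 0.00884), the latter still at -2.84 against the right kidneys on day 3.

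Cyp24a1, which inactivates vitamin D, was above the right kidneys already on day 1 (2.06) and rose further by 1.93 (SE 0.36, limma adjusted p = 0.00844) to 107 to 309 FPKM. Car14, a carbonic anhydrase of the tubule membrane, changed by 2.11 (SE 0.39, adjusted p = 0.00844), and Bbox1, of carnitine synthesis, by 2.84 (SE 0.56, adjusted p = 0.0089). Eif4ebp3, a translational repressor, was at 4.07 to 15.6 FPKM on day 1 and 18.5 to 84.4 on day 3 (2.70, SE 0.39, adjusted p = 0.00813).

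Among the transporters Slc13a3, which takes up dicarboxylates, was at 47.9 to 86.9 FPKM in day 1 replicates 1 to 5, 252 in replicate 6 and 177 to 261 on day 3 (1.46, SE 0.32, limma adjusted p = 0.0105). Slc5a12, which takes up lactate, changed by 1.23 (SE 0.32, adjusted p = 0.0187), and by 0.98 without day 1 replicate 2. Aqp1, the water channel of proximal tubule and thin limb, showed 0.95 (SE 0.20, adjusted p = 0.00982), and 1.12 (adjusted p = 0.000102) without replicate 6. Slc4a4, the basolateral bicarbonate transporter, showed 0.76 (SE 0.13, adjusted p = 0.00813). The next 3, also carriers of the proximal tubule, were lower on day 3. Slco1a1, an organic anion transporter, was at 12.6 to 21.3 FPKM in day 1 replicates 1 to 5, 3.49 in replicate 6 and 1.95 to 6.92 on day 3, with 32.3 to 83.1 in the right kidneys (-1.68, SE 0.42, adjusted p = 0.0157). Slc7a13, an amino acid transporter of the straight segment, was at 13.2 to 16.8, 3.02 and 1.15 to 18.4 FPKM in the same order (-2.02, SE 0.63, adjusted p = 0.0364), and day 3 replicate 5, at 18.4, was the highest of all 12. Slc7a13 was not called when any of 10 kidneys was left out (adjusted p 0.0595 to 0.077). Slc22a7, an anion transporter, changed by -2.51 (SE 0.73, adjusted p = 0.0288) and was not called when any of 6 was left out (0.0526 to 0.0663).

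Genes of fatty acid oxidation were higher on day 3 in part. Of 26 measured, 7 were higher and none lower, against 3.31% and 1.63% of all genes. Leaving out day 1 replicate 6 gave 10 and none, against 5.52% and 2.54%. With all kidneys 16 were higher at an adjusted p under 0.05 with no fold limit, against 9.68%. Against the right kidneys 5 were higher and 1 lower on day 1, and 14 higher and 1 lower on day 3, where 15.7% and 15.3% of all genes were higher. Cyp4a14, a fatty acid hydroxylase and PPAR alpha target, was at 195, 52.3, 56.3, 118, 53.2 and 726 FPKM on day 1 and at 706, 843, 658, 459, 1060 and 444 FPKM on day 3, with 22.5 to 80.1 in the right kidneys (2.50, SE 0.57, limma adjusted p = 0.0124). Replicate 6 lay among the day 3 kidneys. Fabp1, a fatty acid binding protein, changed by 2.57 (SE 0.85, adjusted p = 0.0453) and was not called when any of 10 kidneys was left out or with the pooled spread (adjusted p = 0.0865). Slc25a20, the mitochondrial carnitine carrier, was above the right kidneys on both days and showed 0.61 (SE 0.13, adjusted p = 0.00938). Of 24 oxidative phosphorylation genes none was called with either set of kidneys, and 11 were higher at an adjusted p under 0.05 with no fold limit, against 9.68%.

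In the other segments few genes were called. Of 14 thick ascending limb genes 1 was higher (3 without day 1 replicate 6). Of 17 of the distal convoluted and connecting tubule 1 was lower. Of 18 of the collecting duct none was called (1 lower without replicate 6). Among all genes 3.31% were higher and 1.63% lower, or 5.52% and 2.54% without replicate 6. Egf, made in the thick ascending limb and distal tubule, was at 6.61 to 12.2 FPKM on day 1 and 11.7 to 65.6 on day 3, with 187 to 365 in the right kidneys (1.09, SE 0.35, limma adjusted p = 0.0404). The highest day 3 value was replicate 5, and Egf was not called when any of 8 kidneys was left out or with the pooled spread (adjusted p = 0.0753). Slc12a1, the loop diuretic target, showed 0.99 (SE 0.19, adjusted p = 0.00884). Umod (uromodulin) showed -0.16 (SE 0.18, adjusted p = 0.561) and Aqp2, the collecting duct water channel, -0.37 (SE 0.33, adjusted p = 0.452). Pvalb, of the distal convoluted tubule, was at 14.1 to 31.5 FPKM in the right kidneys, at 0.572 to 1.11 in day 1 replicates 1 to 5 and 0.0777 in replicate 6, and on day 3 was listed at 0 in 5 kidneys and at 1.14 in replicate 5 (adjusted p = 0.0153). Of 19 cholesterol synthesis genes 1 was higher and 1 lower (1 and 2 without day 1 replicate 6), the higher one Insig1, which restrains the pathway (1.01, SE 0.23, adjusted p = 0.013). Insig1 fell short of 2-fold when any of 6 kidneys was left out. Nr1h4 (FXR), the bile acid receptor, showed 0.70 (SE 0.13, adjusted p = 0.00874).

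Markers of tissue beside the kidney were measured in the same kidneys. Among all genes 3.31% were higher and 1.63% lower between the days, or 5.52% and 2.54% without day 1 replicate 6. Of 7 urothelial, 3 adrenal cortex and 8 adipose genes none was called between the days. Of 6 liver genes and 7 blood genes 1 each was lower, Alb in the liver list. Of 3 skeletal muscle genes 1 was higher, Mylpf (1.07, SE 0.28, limma adjusted p = 0.0189, and 0.84 without day 1 replicate 3), and 2 were without day 1 replicate 6. When that library was left out, 2 adipose, 3 liver and 1 adrenal cortex genes were higher, and 2 blood genes and 1 liver gene were lower. The summed level of the adipose genes was 41 to 67.5 FPKM in day 1 replicates 1 to 5, 121 in replicate 6, 79.1 to 229 on day 3 and 44 to 106 in the right kidneys, and that of the blood genes 181 to 616 on day 1 and 75.8 to 341 on day 3. By limma, 6 of 8 adipose genes were called above the right kidneys on day 1, or 5 without day 1 replicate 6. After 3 days 4 were, with 1 below at each time. In the right kidneys of each day 4 of the 8 were listed at 0, so those folds depend on the pseudocount. Blood genes were below in 1 and then 5 of 7, liver genes in 3 of 6 at either time. Urothelial genes were above in 1 and then 3 of 7. Among all genes 15.7% and 15.3% were above, 7.39% and 5.98% below. The part of these markers in the results above was not tested.

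Each gene was then placed by its course against the right kidneys. Of 14276 genes tested on day 1, 2244 were higher than in the right kidneys (15.7%) and 1055 lower (7.39%), and after each library was scaled to the same median FPKM the split was 1750 and 1404, since the median of all genes was 0.24 before and 0.03 after scaling. On day 3, 2187 of 14270 were higher (15.3%) and 853 lower (5.98%), with a median of 0.16. A gene called in either left and right comparison was early where it was called on day 1 and its difference between the days was called towards the right kidneys, late where it was called on day 3 and the difference was called away from them, and lasting where it was called on both days with no called difference between them. Among 14224 genes 139 were higher early (76 of them no longer called on day 3), 1352 higher and lasting and 273 higher late (135 of them not called on day 1). In the other direction 135 were lower early (97 no longer called on day 3), 561 lower and lasting and 35 lower late (20 not called on day 1). Leaving out day 1 replicate 6 gave 2259 higher (15.8%) and 1165 lower (8.17%) on day 1, and classes of 226, 1166 and 455 higher and 232, 517 and 56 lower. Of the lasting genes, 782 of the 1352 higher and 262 of the 561 lower had a 95% interval of the day difference within 1 log2 unit either way, and for the others the interval was wider.

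**Figure D4:**
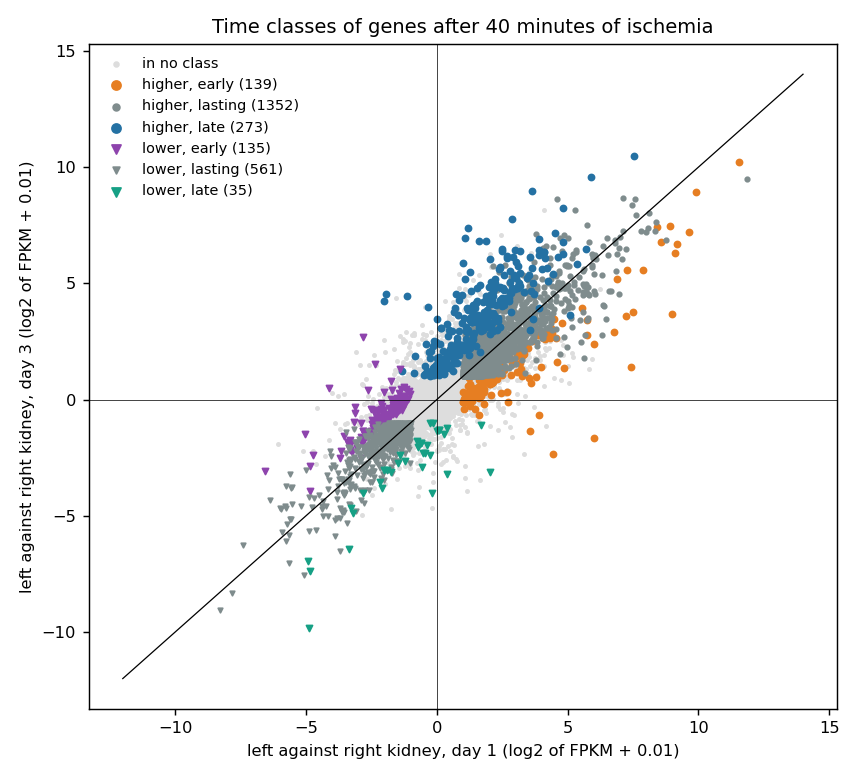
Each point is 1 gene, with its log2 difference between left and right kidneys on day 1 (horizontal) and on day 3 (vertical), coloured by time class with the number of genes in each. Early genes lie between the diagonal and the horizontal zero line or across it, and late genes lie on the far side of the diagonal, 139 and 273 of them among the higher genes.

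Among lasting genes Klrg2 was at 2.18 to 6.58 FPKM on day 1 and 1.89 to 4.27 on day 3, with 0 to 0.218 in the right kidneys, and its day difference was -0.87 (SE 0.28, limma adjusted p = 0.0423), or -1.10 (adjusted p = 0.00244) without day 1 replicate 6. Adam8, a surface protease of leukocytes, was at 6.17 to 12.9 FPKM on day 1 and 4.63 to 12.3 on day 3 (-0.26, SE 0.24, adjusted p = 0.452). Clec4n (dectin-2), a receptor of macrophages, and Cxcl17, a chemokine of mucosae, were listed at 0 in all right kidneys. Clec4n was at 0.671 to 6.46 FPKM on day 1 and 2.19 to 6.11 on day 3, and Cxcl17 at 1.07 to 3.73 and 1.98 to 4.88. Without replicate 6 both were called higher on day 3 (adjusted p = 0.00439 and 0.00308). Ido2, an enzyme of tryptophan breakdown, was lower and lasting, at 1.07 to 4.51 FPKM in the right kidneys and at 0 to 0.0673 and 0 to 0.153 FPKM in the clamped ones.

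Rnf183, a ubiquitin ligase of the kidney, was in the class of late lower genes. It was at 13.4, 16.9, 18.9, 21.7, 20.8 and 4.69 FPKM on day 1, at 3.37, 3.07, 5.03, 3.28, 6.57 and 6.02 FPKM on day 3 and at 17.3 to 24.9 in the right kidneys. Its difference from the right kidneys was -0.54 on day 1 (limma adjusted p = 0.158) and -2.28 on day 3, and between the days -1.73 (SE 0.35, adjusted p = 0.00926). Alb (albumin) followed the same course at a low level, at 1.67 to 2.56 FPKM in day 1 replicates 1 to 5, 0.503 in replicate 6 and 0.501 to 0.739 on day 3 (-1.45, SE 0.34, adjusted p = 0.0129), as did Apcs (serum amyloid P), at 0.313 to 1.83 and 0 to 0.339 FPKM (adjusted p = 0.0133).

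The day difference of the left kidneys net of that of the right kidneys, taken as an interaction over the 24 kidneys of the 40-minute mice, was called higher in 356 and lower in 169 of 14297 genes (2.49% and 1.18%), and in 687 and 333 (4.81% and 2.33%) without day 1 replicate 6.

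After 20 minutes of clamping no gene was called between the same days by limma, higher or lower, among 14271 tested, with 1845 at an unadjusted p under 0.05 (12.9%). A fit over all 48 kidneys called 47 higher and 160 lower, and without 20-minute day 1 replicate 6 the counts were 36 and 151. The left kidneys clamped for 20 minutes differed widely among themselves. Their summed level of the injured proximal tubule genes was 1521 to 6973 FPKM on day 1 and 1597 to 10080 on day 3. After 40 minutes it was 6430 to 10226 and 5197 to 7057. The lack of calls is thus no evidence that nothing changed, and this spread enters the fit over all 48 kidneys. The difference of the day changes, 40 minutes minus 20 minutes, was called higher in 196 genes (1.37%) and lower in 29 (0.203%) of 14308. These counts depended on single libraries, with 535 and 112 (3.74% and 0.783%) without 40-minute day 1 replicate 6 and a range of 62 to 535 and of 6 to 112 over the 24 kidneys left out in turn.

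Mitosis genes made up part of the difference between the 2 lengths of clamping. Of the 30, 22 changed more after 40 than after 20 minutes and none less. The count was 29 without day 1 replicate 6, and 7 to 29 when each of 24 kidneys was left out. Among all genes 1.37% were called higher and 0.203% lower in this difference, or 3.74% and 0.783% without day 1 replicate 6. The median day change of the 30 mitosis genes was 2.35 after 40 and -0.46 after 20 minutes. Of the 30 replication genes 3 differed, Rrm2, Tk1 and Gins2, and the list's median day change was -0.14 after 40 and -1.34 after 20 minutes. Gins2, of the replicative helicase, was at 1.46 to 2.37 FPKM on day 1 and 2.36 to 3.32 on day 3 after 40 minutes, and its changes differed by 1.29 (limma adjusted p = 0.033). For Birc5 the difference was 3.44 (adjusted p = 0.0175), for Kif11 3.52 (adjusted p = 0.0201) and for Rrm2 2.52 (adjusted p = 0.0256).

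**Figure D5:**
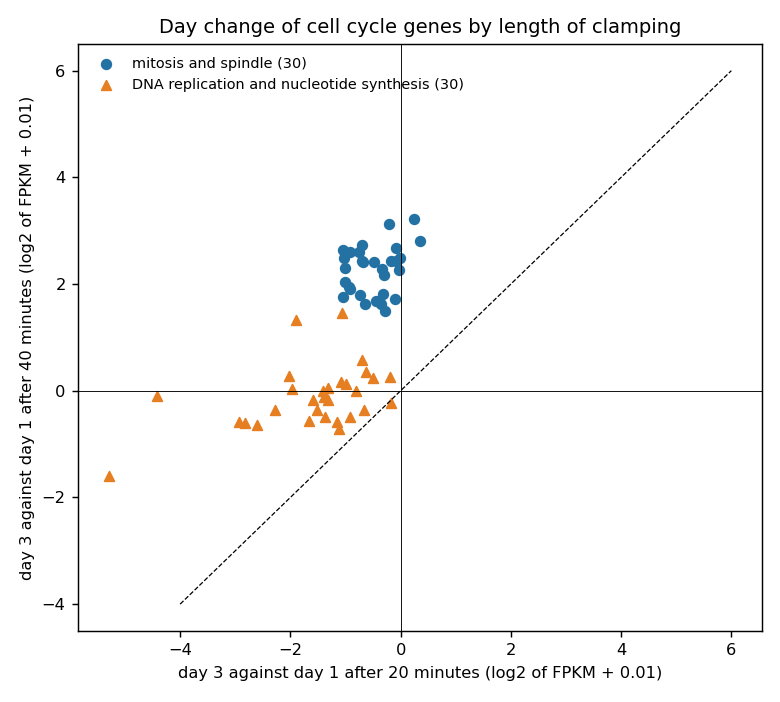
Each point is 1 gene, with its day 3 against day 1 log2 change after 20 minutes (horizontal) and after 40 minutes (vertical). Circles are 30 mitosis genes and triangles 30 replication genes, and the dashed line marks equal changes. The mitosis genes lie above 0 on the vertical axis, at a median of 2.35, and around a median of -0.46 on the horizontal axis.

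Depdc1a and Ska1, both of the mitotic spindle, were listed at 0 in day 1 replicates 1 to 5 and in all right kidneys. In day 1 replicate 6 they were at 1.48 and 0.884 FPKM, and on day 3 at 1.15 to 2.39 and 0.854 to 1.51 FPKM. Both rose (limma adjusted p = 0.00813), and both differed between 40 and 20 minutes (adjusted p = 0.0193 and 0.0334). Esco2, which ties sister chromatids together, was at 0.11 to 0.37 FPKM in day 1 replicates 1 to 5, 2.33 in replicate 6 and 1.82 to 3.18 on day 3 (2.85, SE 0.60, adjusted p = 0.00961). Outside the cell cycle, the proximal tubule genes Aspg (2.65, adjusted p = 0.0256), Car14 (2.25, adjusted p = 0.0321), Slc13a3 (1.42, adjusted p = 0.0414) and Aqp1 (1.24, adjusted p = 0.0236) changed more upward after 40 minutes. Srxn1 (-2.05, adjusted p = 0.0201), Srm (-1.41, adjusted p = 0.0462) and Pvalb (adjusted p = 0.048) changed more downward. For Havcr1 the difference between the lengths was -1.07 (adjusted p = 0.809), for Cyp4a14 0.80 (adjusted p = 0.663) and for C3 1.31 (adjusted p = 0.365), none of which passed the test. These comparisons share the day 1 and day 3 kidneys clamped for 40 minutes with the results above.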

How the data were processed

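Kidney cortex RNA of male C57BL/6 mice was sequenced by the study after mRNA enrichment on Illumina instruments. Per the study's methods and the labels, the authors ran FastQC 0.11.7 on the reads, HISAT2 2.1.0 for alignment against GRCm38 (names and versions also stand in the submitters' processing notes), and Ballgown for transcript levels. The authors deposited FPKM per Ensembl transcript (33953 transcripts, 48 libraries), each reaching at least 0.5 FPKM in some library. Which library ran on which instrument is not given in the sources used here. FPKM sums to a similar total in each library (381308 to 421059), so it carries no depth, and a gene can appear lower because others are higher. Between 33.6% and 49.9% of low values of single-transcript genes lay within 0.1 of a whole number of reads at the best step found, so reads could not be recovered and the depth is unknown. Read counts were not used, and how the counting treated strand is not given in the sources used here.

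FPKM was summed per gene symbol (14320 features, of which 82 transcripts with no symbol in the annotation kept their own identifier). log2(FPKM + 0.01) was fitted with limma 3.58.1 in R 4.3.3 (mean-variance trend, only the groups compared in each fit) over the genes whose mean in the compared kidneys reached 0.01 FPKM, with Benjamini-Hochberg adjustment over all genes. Calls needed an adjusted p below 0.05 together with a 2-fold change or more. The fold of low genes, and of genes listed at 0 in some kidneys, depends on the pseudocount. Exact permutation tests were two-sided. On simulated data with 100 genes changed 4-fold among 14261, 94% were called for day 3 against day 1, and with 16-fold 99%. The changed genes had a mean of at least 1 FPKM and the noise was independent between kidneys. Low genes and a library like day 1 replicate 6 were thus not covered. Groups came from the sample titles, and p-values measure the spread between mice of a group. The left and right kidney of 1 mouse deviated together little (median correlation 0.05 on day 1 and -0.002 on day 3). The right kidney of the same mouse was the closest for 3 of 6 left kidneys on day 1 and for 1 of 6 on day 3. The fit with the mouse as a block changed no count of the left and right comparisons by over 1.5 times.

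Genes were named by rule: the largest changes without overlap, up to 4 members of each list by adjusted p, leading genes of each time class and of the comparison of 40 with 20 minutes, and genes the study measured as proteins, of which the text describes a selection. Cdk1, Top2a, Kif11 and Rrm1 (for their promoters), and Acta2, Aen, Apoc1, Fabp1, Foxm1, Gsta1, Slc5a12, Tagln and Trem2 (to complete small counts), were chosen after their values were seen. The comparison and all gene lists were chosen with earlier results of these data known. Some genes are not reported here. Promoters are from RefSeq on GRCm38.p6. Alternatives were other pseudocounts, filters, fold limits, scaling to an equal median, a pooled spread over 48 kidneys, blocks and leaving out each kidney. Python 3.11.15, pandas 2.3.3 and scipy 1.17.1 were used.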

Additional observations from a re-analysis of the deposited data

Results flagged for a closer look

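For each named gene the highest or lowest of the 6 kidneys of a day was compared with the rest by Dixon's ratio of gap to range against its 95% critical value for 6 samples. For independent groups of genes not picked by their values chance gives about 5%. The named genes were picked largely by their day difference in these same kidneys, so that rate does not apply. Of 248 groups 56 passed, and 45 of these were the library labelled day 1 replicate 6. That library stood above the other day 1 kidneys, in FPKM, in Birc5 (16.2, others 1.99 to 3.03), Cdc20 (12.2, others 1.68 to 2.42), Ccnb2 (12.3, others 0.85 to 1.75), Ccnb1 (6.73, others 0.895 to 1.43), Top2a (9.15, others 1.30 to 2.67) and Rrm2 (30.1, others 9.58 to 12.5). It was likewise above them in Timp2 (46.2, others 19.9 to 27), Igfbp7 (655, others 451 to 514), Gpnmb (8.38, others 1.82 to 3.09), H2-Ab1 (104, others 13.7 to 24.3), C2 (30.8, others 7.85 to 11.8) and Col4a3 (41.6, others 20.7 to 26). Further genes above were Aqp1 (97.9, others 43.2 to 56), Slc13a3 (252, others 47.9 to 86.9), Aspg (6.16, others 0.704 to 1.51), Car14 (33.4, others 4.84 to 9.16), Insig1 (18.1, others 8.04 to 10.4) and Depdc1a (1.48, others 0). Above too was Ska1 (0.884, others 0). It stood below them in Havcr1 (171, others 714 to 1026), Sprr2f (9.35, others 32.7 to 54.3), Fosl1 (2.34, others 14.3 to 22.4), Srm (12.1, others 31 to 35.8), Srxn1 (72.8, others 214 to 310) and Gsr (87.5, others 132 to 137). It was likewise below them in Vgf (0.471, others 4.44 to 11.4), Mt3 (0.677, others 6.86 to 9.98), Aen (9.37, others 25.2 to 31.5), Gsta1 (27.7, others 85.3 to 118), Lgals3 (89.4, others 214 to 296) and Kdr (10.6, others 17.1 to 22.4). Further genes below were Podxl (42.5, others 61.7 to 72.5), Plaur (15.8, others 31.1 to 46), Mmp10 (0.133, others 1.19 to 2.96), Acta2 (77.2, others 181 to 261) and Tagln (107, others 220 to 298). Below too were Slc7a13 (3.02, others 13.2 to 16.8), Slco1a1 (3.49, others 12.6 to 21.3), Slc22a7 (0.562, others 2.07 to 4.41), Aqp2 (44.7, others 94.8 to 148), Pvalb (0.0777, others 0.572 to 1.11) and Alb (0.503, others 1.67 to 2.56). The last below were Apcs (0.313, others 1.09 to 1.83), Rnf183 (4.69, others 13.4 to 21.7) and Tfrc (11.1, others 25.6 to 36.8).

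Among the day 3 kidneys 11 groups passed, 7 of them through replicate 5. These were, in FPKM, Krt18 replicate 6 (119, others 92.1 to 101), Timp2 replicate 5 (21, others 30.5 to 36), Jund replicate 6 (87.4, others 76 to 79.9), Srxn1 replicate 5 (45.9, others 76.2 to 87.9), Apoc2 replicate 5 (2.81, others 16.3 to 46.6) and Trem2 replicate 1 (3.47, others 7.26 to 10.9). The others were Cdh5 replicate 5 (3.51, others 5.82 to 7.51), Tek replicate 5 (3.16, others 5.24 to 6.66), Egf replicate 5 (65.6, others 11.7 to 18.3), Pvalb replicate 5 (1.14, others 0) and Foxm1 replicate 2 (1.17, others 2.98 to 4.59).

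The day change of 23 named genes differed between 40 and 20 minutes by the interaction term of the limma fit, at adjusted p values of 0.0175 to 0.0492. The log2 difference was above 0 in Birc5 (3.44), Cdc20 (2.51), Ccnb2 (2.97), Cdk1 (2.88), Top2a (3.05), Kif11 (3.52), Rrm2 (2.52), Tk1 (3.23) and Gins2 (1.29). Also above 0 were G0s2 (1.71), Aqp1 (1.24), Slc13a3 (1.42), Aspg (2.65), Car14 (2.25), Insig1 (1.75), Slc5a12 (2.37), Depdc1a (8.05) and Ska1 (7.57). Esco2 (4.69) and Mylpf (1.95) were above 0 as well. It was below 0 in Srm (-1.41), Srxn1 (-2.05) and Pvalb (-4.66). The values of Depdc1a, Ska1 and Pvalb, listed at 0 in most kidneys of a group, depend on the pseudocount. Without day 1 replicate 6, 29 in place of 22 of the 30 mitosis genes differed, where 3.74% in place of 1.37% of all genes were higher.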

How the results depend on the processing

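Of 124 genes named, 90 were called, 49 of them under all 7 other settings and 65 when each of 12 kidneys was left out. Leaving out 1 kidney gave 330 to 787 genes higher and 150 to 362 lower on day 3, 2160 to 2317 and 991 to 1165 for left against right on day 1, 2102 to 2221 and 784 to 910 on day 3, 0 to 1 and 0 to 1 between right kidneys, 258 to 687 and 111 to 333 for the difference net of right kidneys, 62 to 535 and 6 to 112 for 40 minus 20 minutes, and 0 to 36 and 0 to 151 after 20 minutes. The classes ranged over 87 to 226 higher early, 1166 to 1412 higher and lasting, 192 to 455 higher late, 93 to 232 lower early, 517 to 585 lower and lasting and 17 to 56 lower late. With a pseudocount of 1 FPKM the counts were 253 higher and 93 lower between the days, 1210 and 632 on day 1, 1147 and 453 on day 3, 91 lower net of right kidneys, and 60, 650 and 145 (higher early, lasting, late) and 76, 321 and 12 (lower) for the classes. With no fold limit they were 1381 and 1951, 5674 and 2631, 5314 and 2854, 814 and 1172, and 329 and 92 for 40 minus 20 minutes. A mean of at least 1 FPKM gave 1444 higher on day 3 and classes of 85, 891 and 143 higher and 336 lasting and 20 late lower, since fewer genes were tested. A 4-fold limit gave 22, 623 and 96 higher and 16, 194 and 8 lower. With the spread pooled over all 48 kidneys there were 451 higher and 91 lower for 40 minus 20 minutes, 47 and 160 after 20 minutes, 1 lower between right kidneys and 65 lower late. The cause of these shifts was not tested. No other setting moved these counts by over 1.5 times, except the block below and the libraries named above.

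The replicate number as a block gave 154 genes lower between the days, 89 higher and 12 lower for 40 minus 20 minutes and 19 lower late, and ended the call of 17 of the named genes. Same-numbered left kidneys of the 2 days are different mice, their deviations correlated at -0.19 to -0.02, and none of 6 was closest to its own number. Krt7 turned to 0.00042 without day 1 replicate 2 (range -0.21 to 0.00042 over the kidneys left out). Igfbp7 (-0.01) turned to 0.0567 with median scaling, and it ranged from -0.0417 to 0.0658 over the kidneys left out, above 0 without day 1 replicate 6 and day 3 replicates 1 and 4. The pooled spread ended the calls of Havcr1, Lcn2, Sprr2f, Fosl1, S100a8, Retnlg, Cxcr2, Il1b, Ms4a4a, Gpnmb, Trem2, Tnc, Mmp9, Egf, Fabp1 and Cxcl13, a pseudocount of 1 FPKM those of Myc, Ptgs2, Cxcr2, Il1b, Nkg7, Ctss, Mmp9, Bbox1, Insig1, Pvalb, Fabp1, Alb, Apcs, Cxcl13, Casp4 and Mylpf, and median scaling those of Lcn2, Myc and Gdf15. FPKM carries no depth, and low genes such as Vgf, Mmp10, Nkg7, Depdc1a and Ska1 have folds set by the pseudocount.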

Other observations

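In other gene groups linked to kidney injury few genes were called between day 1 and day 3 after 40 minutes. Of 27 chemokines and chemokine receptors 1 was higher and 2 lower by limma, against 3.31% and 1.63% of all genes. Leaving out day 1 replicate 6 gave 3 and 2, against 5.52% and 2.54%. Cxcr2 is given above. Ccl6, a chemokine of mouse macrophages, was at 7.91 to 26.7 FPKM in day 1 replicates 1 to 5, 57.3 in replicate 6 and 21.6 to 64.8 on day 3 (1.36, SE 0.44, adjusted p = 0.0428), and it was not called when any of 10 kidneys was left out. Cxcl13, which attracts B cells, was at 0.831 to 5.12 FPKM on day 1 and 0.354 to 1.21 on day 3 (-1.54, SE 0.49, adjusted p = 0.0392), and it was not called when any of 7 kidneys was left out or with the spread pooled over all 48 kidneys (adjusted p = 0.226). Of 23 cytokine and NF-kB genes 2 were lower, Il1b and Ptgs2, and none higher. Leaving out day 1 replicate 6 gave 3 and none, against 2.54% and 5.52% of all genes. Of 22 interferon-stimulated genes 1 was higher, Ifi27l2a (1.54, SE 0.46, adjusted p = 0.0311), and it was not called when any of 7 kidneys was left out. Of 21 acute phase genes 2 were higher, C3 and Cp, and 1 lower, Lcn2, and of 11 genes of EGF ligands and receptors 1 was higher, Egf.

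Of 22 cell death genes 1 was higher and 2 were lower by limma, against 3.31% and 1.63% of all genes. Casp4, the mouse caspase 11 that senses lipopolysaccharide and starts pyroptosis, was at 0.856, 1.00, 1.36, 1.62, 1.27 and 3.02 FPKM in day 1 replicates 1 to 6 and at 2.82 to 4.06 on day 3 (1.30, SE 0.26, adjusted p = 0.00884). Replicate 6 again lay within the day 3 values. Tfrc, the transferrin receptor through which cells take up iron, was at 25.6 to 36.8 FPKM in day 1 replicates 1 to 5, 11.1 in replicate 6 and 8.03 to 14.2 on day 3 (-1.23, SE 0.26, adjusted p = 0.01), and the other lower gene was Ptgs2. Of 22 genes of tubule development and transcription factors 3 were higher without day 1 replicate 6, against 5.52% of all genes. With all kidneys 2 were higher, against 3.31%. Foxm1, which drives transcription of mitosis genes, was at 0.107 to 0.883 FPKM in day 1 replicates 1 to 5, 3.37 in replicate 6 and 1.17 to 4.59 on day 3 (2.41, SE 0.65, adjusted p = 0.0219). Ppara, the nuclear receptor of fatty acid oxidation, was at 12.6 to 23.7 FPKM, 43.8 and 25.6 to 57.1 FPKM in the same order (1.24, SE 0.32, adjusted p = 0.018). Of 20 ATF4 and unfolded protein response genes and 18 circadian clock genes none was called by limma in either direction, with 1 and 3 higher and 4 and 0 lower at an adjusted p under 0.05 with no fold limit, against 9.68% and 13.7% of all genes. Leaving out day 1 replicate 6 gave 3 lower genes in the former list and 4 higher in the latter. Among all genes 2.54% were then lower and 5.52% higher. In the day change after 40 minus after 20 minutes, 4 of the 18 clock genes were higher and none lower. Among all genes 1.37% and 0.203% were. Without 40-minute day 1 replicate 6 the clock counts were 7 and 1, against 3.74% and 0.783%.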
